A study of Mus musculus with 19 samples.

Results

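The mRNA levels of 10 genes of the Nrf2 antioxidant pathway were read in obstructed mouse kidneys. They are Nfe2l2, which encodes the transcription factor Nrf2, Keap1, which encodes its sensor and inhibitor, and 8 of their best known target genes, Hmox1, Nqo1, Txnrd1, Srxn1, Gclc, Gclm, Slc7a11 and Osgin1. The genes were taken by symbol from the table of counts, which listed 54532 genes, of which 33651 had at least 1 count, and all 10 of the 10 symbols were found. RNA was sequenced from the whole left kidney of 19 male C57BL/6J mice on day 12 after unilateral ureteral obstruction (UUO), in which the ureter of that kidney is tied. Mice were 8 to 9 weeks old.

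Wild-type (WT) mice received phosphate-buffered saline (PBS; the WT PBS group, n = 5) or recombinant CD5L (rCD5L; the WT rCD5L group, n = 5). Mice that lack CD5L (CD5L KO) received the same agents, PBS in the KO PBS group (n = 4) and rCD5L in the KO rCD5L group (n = 5). All 19 mice carried the obstruction, and no kidney without it was compared here. The rCD5L was injected into the abdominal cavity daily at 0.5 mg per mouse. CD5L, also called apoptosis inhibitor of macrophage, is a protein that macrophages release into blood. The study did not randomize or blind the mice and alternated surgery and processing among the groups. Each kidney came from a separate mouse.

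In resting cells, Keap1 holds the Nrf2 protein for ubiquitination by the Cul3 and Rbx1 ligase and for breakdown by the proteasome. When oxidants or electrophiles modify cysteines of Keap1, Nrf2 escapes, moves to the nucleus, pairs with a small Maf protein and binds the antioxidant response element of its target genes. The step that is regulated is thus mainly the amount of protein, which was not measured in these data, and the target mRNAs are commonly read in its place. In the kidney the proximal tubule carries much of the pathway, as it handles a large load of oxidants and of glutathione.

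The antioxidant response element has the core TGACNNNGC, and the RefSeq promoter windows of the members were searched for it on both strands. A window ran from 250 bases before to 50 bases after a start site of build GRCm38.p6, and 12.4% of 32851 windows of the table held the core. Of the members, 8 had a window (10 windows in all), and 4 windows in 4 members held it. Hmox1 and Gclc had no window. The 4 matches are shown because they are the letters through which Nrf2 is known to read its targets, with the core in capitals. The run of Nfe2l2 is chr2:75704664-75704913 on the minus strand, with the core on the sense strand at bases -240 to -232 from the start site, so the gene of the factor holds the core in front of itself. The run of Gclm is chr3:122245307-122245556 on the plus strand, with the core read on the antisense strand at -134 to -126. The run of Txnrd1 is chr10:82858956-82859205 on the plus strand, with the core read on the antisense strand at -92 to -84. The start site of this window lies inside the gene, whose listed interval begins at 82833951. For Srxn1 the match lay inside the transcribed part, at +29 to +37 on the antisense strand, and only 30 bases are given, chr2:152105542-152105571 on the plus strand.
Nfe2l2: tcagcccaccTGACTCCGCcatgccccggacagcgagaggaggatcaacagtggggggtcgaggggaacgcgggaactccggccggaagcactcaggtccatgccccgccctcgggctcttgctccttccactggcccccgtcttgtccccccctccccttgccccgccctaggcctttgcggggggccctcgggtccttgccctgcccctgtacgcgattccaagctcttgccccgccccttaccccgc
Gclm: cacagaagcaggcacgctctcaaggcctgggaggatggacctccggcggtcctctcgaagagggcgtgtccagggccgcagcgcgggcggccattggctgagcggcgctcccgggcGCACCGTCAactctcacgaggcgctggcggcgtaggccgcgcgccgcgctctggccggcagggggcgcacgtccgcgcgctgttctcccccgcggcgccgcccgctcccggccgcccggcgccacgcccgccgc
Txnrd1: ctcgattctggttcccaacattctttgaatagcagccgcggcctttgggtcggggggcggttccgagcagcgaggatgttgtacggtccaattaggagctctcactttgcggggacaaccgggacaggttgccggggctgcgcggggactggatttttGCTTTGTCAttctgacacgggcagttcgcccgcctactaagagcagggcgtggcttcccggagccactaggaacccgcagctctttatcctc
Srxn1: gcagtgggcaGCTAGGTCAgagtgagacac
A match is a description of the letters and no evidence of binding in these kidneys. Keap1, Nqo1, Slc7a11 and Osgin1 had a window without these letters, from which nothing follows about the factor, since elements often lie farther away.

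Libraries held 17917491 to 23847090 counts. The targeted gene, Cd5l, had no count in any of the KO kidneys (a floor of 3 counts), against 5 to 13 in WT PBS kidneys and 3 to 15 in WT rCD5L kidneys. Levels below are CPM (counts relative to library size) scaled by the TMM factors of edgeR, and the proximal tubule list, 20 genes of that segment such as Lrp2 and Slc34a1, was read in all kidneys with no marker at 0. Kidneys of the same group differed by a chi-square per degree of freedom of 6.63 to 26.4, apart from pairs that held KO rCD5L replicate 3 or 4, where it was 78.7 to 319. Replicate 4 had 35806 CPM summed over the proximal tubule list, against 2910 to 6411 in the other 18 kidneys, together with 634 CPM over 5 markers of injured proximal tubule (1573 to 2161 in the others) and 567 CPM over 8 macrophage markers (1221 to 1863 in the others). Its TMM factor was 0.713 and that of replicate 3 was 0.890, against 0.966 to 1.07 elsewhere. Replicate 3 had 5693 CPM over the proximal tubule list and 1751 CPM over the macrophage list, within the range of the others. It lay outside that range over 5 collecting duct markers (443 CPM, with 439 CPM in replicate 4 and 159 to 378 CPM in the other 17 kidneys), over 6 fibroblast and myofibroblast markers (4333 CPM, against 1067 CPM in replicate 4 and at most 4211 CPM elsewhere) and over 4 podocyte markers (318 CPM, with 286 CPM in replicate 4 and 360 to 525 CPM in the other 17). The main results that rest on both kidneys are therefore given with and without them. In whole kidney RNA, fewer cells of a type and less RNA per cell cannot be told apart.

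Per length of transcript, Nfe2l2 was the most abundant of the 10 genes, with a median of 41.3 FPKM over the 19 kidneys. Gclc followed at 38.3 FPKM, then Hmox1 at 28.4, Srxn1 at 21.1, Gclm at 17.8, Txnrd1 at 15.4 and Nqo1 at 13.8. Keap1 had 8.93 FPKM and Osgin1 6.16. Slc7a11, the cystine carrier that feeds glutathione synthesis, was near the limit of detection at 0.0846 FPKM and 14 to 67 counts per kidney, so its differences were measured with little precision. In each of the 10 genes, groups next to each other in the order of their median CPM overlapped.

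Nfe2l2 (ENSMUSG00000015839, GRCm38 chromosome 2, 75675513 to 75704641, minus strand) had 184, 199.7, 198, 196 and 212 CPM in WT PBS kidneys and 190.2, 185, 194, 190.0 and 189.5 CPM in WT rCD5L kidneys. It had 177, 186, 169 and 197 CPM in KO PBS kidneys and 189, 192, 145, 166 and 209 CPM in KO rCD5L kidneys. The mRNA of the factor thus stayed within a narrow band in 17 kidneys, and its lowest levels were those of replicates 3 and 4 of the last group. Keap1 (ENSMUSG00000003308, chromosome 9, 21229730 to 21239361, minus strand) ranged from 47.0 to 56.5 CPM in 18 kidneys and reached 83.6 CPM in KO rCD5L replicate 3.

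Hmox1 (ENSMUSG00000005413, chromosome 8, 75093621 to 75100589) encodes heme oxygenase 1, which breaks down heme. It had 63.9, 85.6, 74.4, 64.7 and 60.8 CPM in WT PBS kidneys and 59.1, 60.4, 52.4, 63.6 and 49.1 CPM in WT rCD5L kidneys. In CD5L KO kidneys it had 53.2, 54.8, 57.3 and 63.0 CPM with PBS and 52.6, 57.6, 126, 102 and 71.8 CPM with rCD5L. The highest levels were in KO rCD5L replicates 3 and 4, and each pair of groups overlapped.

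Nqo1 (ENSMUSG00000003849, chromosome 8, 107388225 to 107403206, minus strand) encodes a quinone reductase. It had 23.9, 26.1, 35.0, 29.9 and 28.2 CPM in WT PBS kidneys and 20.8, 23.6, 18.6, 18.03 and 16.1 CPM in WT rCD5L kidneys, 2 groups that did not overlap. With 24.1, 29.3, 42.1 and 30.9 CPM, KO PBS kidneys lay around the WT PBS kidneys. The KO rCD5L kidneys spread from 18.1 CPM through 26.2, 27.2 and 40.2 to 111 CPM, the last in replicate 4.

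Osgin1 (ENSMUSG00000074063, chromosome 8, 119434124 to 119446256) is an oxidative stress induced growth inhibitor. It had 14.9, 19.6, 23.1, 22.5 and 17.8 CPM in WT PBS kidneys and 19.8, 16.0, 17.8, 15.4 and 16.4 CPM in WT rCD5L kidneys. In CD5L KO kidneys it had 18.5, 20.4, 29.5 and 22.5 CPM with PBS and 21.3, 22.2, 55.7, 109 and 22.4 CPM with rCD5L. All 5 KO rCD5L kidneys lay above all 5 WT rCD5L kidneys, but only replicates 3 and 4 by much.

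Gclc (ENSMUSG00000032350, chromosome 9, 77754535 to 77794485) and Gclm (ENSMUSG00000028124, chromosome 3, 122245557 to 122270732) encode the catalytic and the modifier subunit of glutamate-cysteine ligase, the limiting step of glutathione synthesis. Gclc had 143, 190.3, 275, 191 and 182 CPM in WT PBS kidneys, 182, 157, 151, 173 and 157 CPM in WT rCD5L kidneys, 137, 134, 234 and 161 CPM in KO PBS kidneys and 141, 159, 256, 439 and 186 CPM in KO rCD5L kidneys. Gclm had 111 to 175 CPM in WT PBS kidneys, 119 to 143 CPM in WT rCD5L kidneys and 119 to 183 CPM in KO PBS kidneys. In the 5 KO rCD5L kidneys it had 154, 137, 178, 456 and 138 CPM. Replicate 4 was the highest kidney for both subunits.

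Txnrd1 (ENSMUSG00000020250, chromosome 10, 82833951 to 82897712), thioredoxin reductase 1, and Srxn1 (ENSMUSG00000032802, chromosome 2, 152105516 to 152111376), sulfiredoxin, restore the thiol enzymes thioredoxin and peroxiredoxin. Txnrd1 ranged from 109 to 153 CPM in 17 kidneys, with 206 and 235 CPM in KO rCD5L replicates 3 and 4. Srxn1 ranged from 65.4 to 93.9 CPM in the same 17 kidneys, with 158 and 99.4 CPM in those 2. Slc7a11 (ENSMUSG00000027737, chromosome 3, 49892526 to 50443614, minus strand) ranged from 0.891 to 2.67 CPM, and replicates 3 and 4 lay inside that range with 1.98 and 1.03 CPM.

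**Figure D1:**
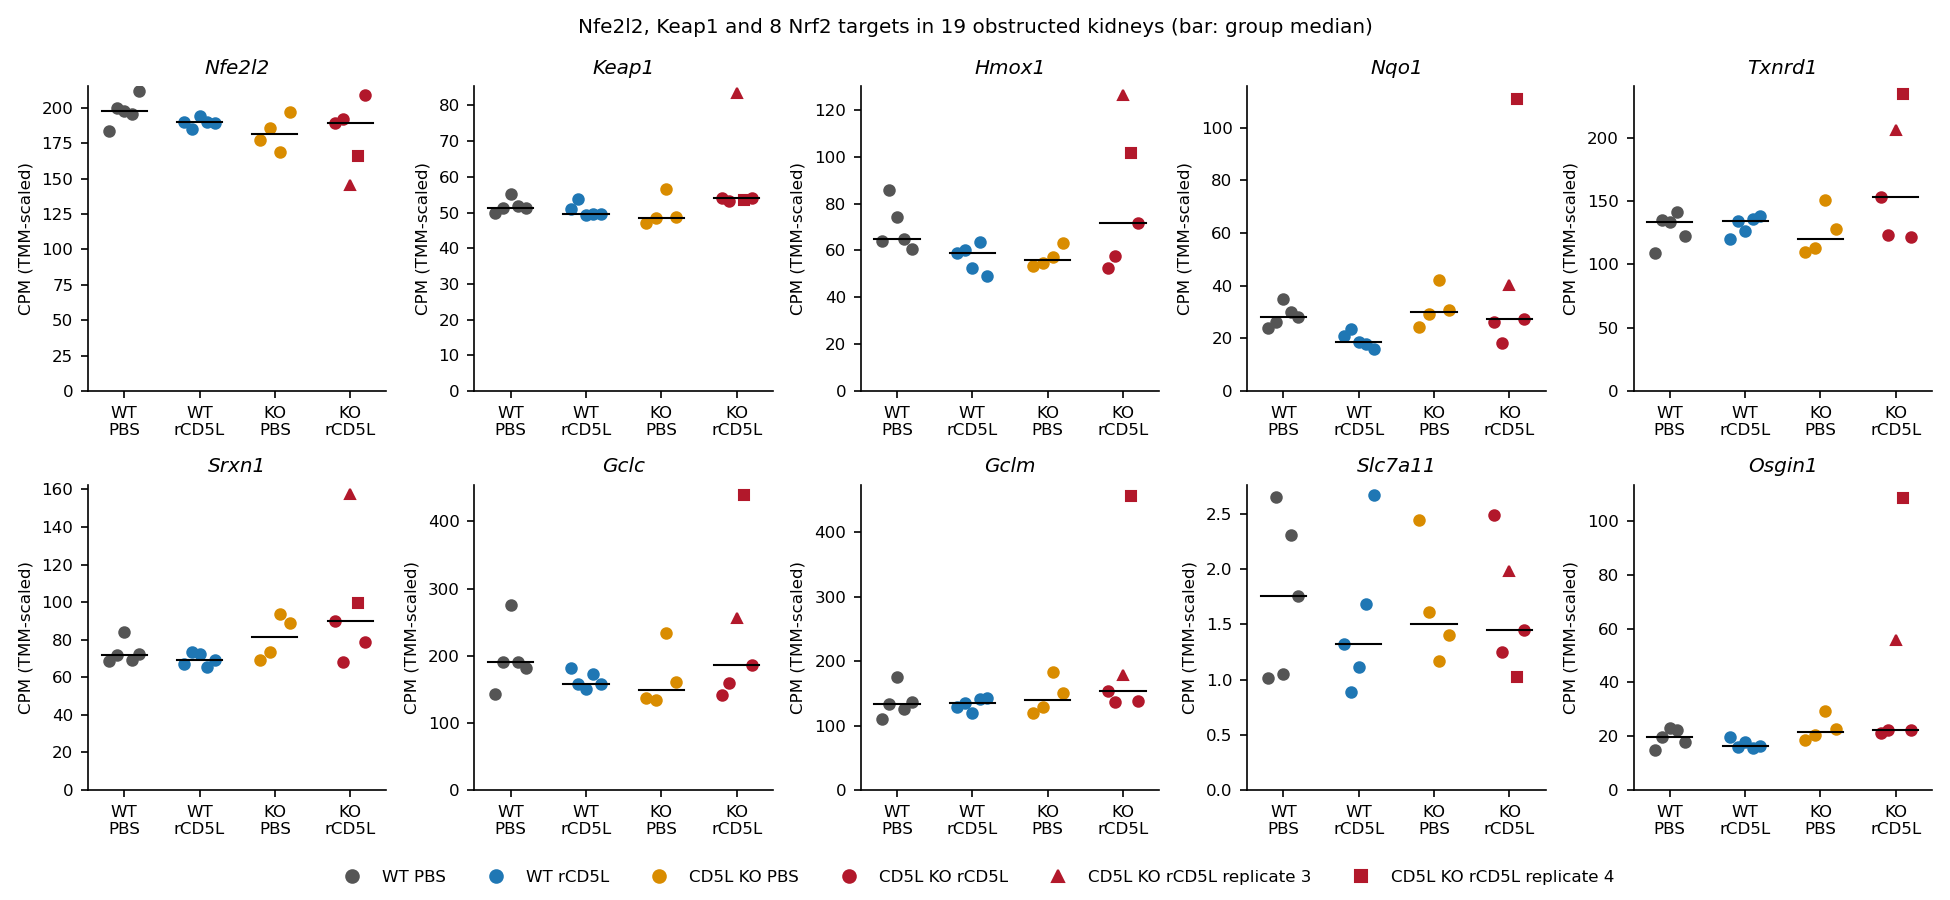
Level of each of the 10 genes in each kidney (CPM scaled by TMM factors, axis from 0) by group, with the group median as a bar; triangles and squares mark KO rCD5L replicates 3 and 4. These 2 kidneys hold the lowest Nfe2l2 levels (145 and 166 CPM) and the highest levels of Hmox1, Txnrd1, Srxn1 and Osgin1.

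The first comparison, between the KO PBS and WT PBS kidneys, asks what loss of CD5L does without treatment. None of the 10 members was called by edgeR's quasi-likelihood test at an adjusted p-value under 0.05, where 10.5% of the 17579 genes tested were called. The largest difference was that of Hmox1, 57.1 ± 4.32 CPM (SD, n = 4) in CD5L KO kidneys against 69.9 ± 10.2 CPM (SD, n = 5) in WT kidneys. Its log2 fold change was -0.30 (SE 0.0946, edgeR adjusted p = 0.0650), and DESeq2 called it (adjusted p = 0.0308). Hmox1 was the only member called by DESeq2, which called 8.14% of its genes (2571 of 31568, low counts included), and the only one with an unadjusted edgeR p under 0.05 (26.6% of all genes). Nfe2l2 had a log2 fold change of -0.12 (SE 0.0599, edgeR adjusted p = 0.210). The remaining targets lay between -0.24 (Gclc) and 0.21 (Osgin1), 4 of the 8 targets had a positive value, and the median over the 10 members was -0.045 beside -0.0046 over all genes. No member separated the 2 groups without overlap, which 14.1% of genes did. Some marker lists differed between the 2 groups here, by values that were not tested. The KO PBS and WT PBS kidneys did not overlap in the sum over 5 endothelial markers (420 to 483 against 523 to 604 CPM) or over 5 urothelial markers (156 to 271 against 20.2 to 151 CPM). They overlapped at 1 end over the fibroblast and myofibroblast list (2103 to 2914 against 2906 to 4211 CPM), the podocyte list (360 to 444 against 434 to 502 CPM) and the injured proximal tubule list (1873 to 2161 against 1573 to 1929 CPM). No marker of these lists was at 0, and their part in the result was not tested. Over the urothelial list, WT PBS replicate 3 alone had 20.2 CPM, and the next lowest WT PBS kidney had 123 CPM. The groups overlapped more widely over the proximal tubule, thick ascending limb, distal convoluted tubule, collecting duct, macrophage, neutrophil and T and B cell lists.

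In WT mice, rCD5L against PBS asks what added protein does where CD5L is present. Nqo1 had the largest difference of the members, 19.4 ± 2.87 CPM (SD, n = 5) with rCD5L against 28.6 ± 4.21 CPM (SD, n = 5) with PBS. Its log2 fold change was -0.55 (SE 0.112, edgeR unadjusted p = 0.000235, adjusted p = 0.104), and DESeq2 called it (adjusted p = 0.00200). It was the only member whose groups did not overlap (3.58% of genes) and the only one called by DESeq2 (1.6% of genes). Hmox1 followed with -0.28 (SE 0.0924, edgeR unadjusted p = 0.00832, adjusted p = 0.161). Of the members, edgeR called 0 (0% of 17455 genes), and these 2 had an unadjusted p under 0.05 (16% of genes). Nfe2l2 had a log2 fold change of -0.045 (SE 0.0462) and Gclm of -0.017 (SE 0.0967). Of the 8 targets, 7 had a negative value, with a median of -0.17 against 0.0046 over all genes. This median ranged from -0.29 to -0.10 when single kidneys were left out.

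The proximal tubule score, the mean over the 20 genes of the proximal tubule list of log2 CPM minus the gene's mean over the 19 kidneys, was also lower in the WT rCD5L kidneys, by a difference that did not pass its test. Its mean was -0.47 in the WT rCD5L kidneys (SD 0.267, n = 5) and -0.021 in the WT PBS kidneys (SD 0.415, n = 5), a difference of -0.45 (two-sided exact permutation test, p = 0.0794, adjusted over 4 comparisons p = 0.159). The 2 groups' summed levels were 2910 to 4061 CPM and 3240 to 6411 CPM. The endothelial list had 481 to 526 CPM in the WT rCD5L kidneys and 523 to 604 CPM in the WT PBS kidneys, which overlapped at 1 end, and its part was not tested. With the score as a term of the edgeR fit, the log2 fold change was -0.31 for Nqo1 (SE 0.0887, adjusted p = 0.223) and -0.26 for Hmox1 (SE 0.112, adjusted p = 0.407), and those of Keap1 and 4 targets turned from negative to positive, the largest being Gclm at 0.17.

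In CD5L KO mice, rCD5L against PBS asks what the protein does when it is put back. With all 9 kidneys, 8 of the 8 targets had a positive log2 fold change, with a median of 0.52 beside 0.019 over all genes. The values were 1.04 for Osgin1 (SE 0.497), 0.57 for Gclm (SE 0.371), 0.54 for Hmox1 (SE 0.249), 0.53 for Gclc (SE 0.340) and 0.52 for Nqo1 (SE 0.483). None was called by edgeR (adjusted p = 0.897 or above) or DESeq2. The number of members with an unadjusted p under 0.05 was 0 with edgeR and 2 with DESeq2, Hmox1 and Osgin1 (822 of 30845 genes). Among all genes, edgeR called 0%, DESeq2 0.00973%, 2.87% had an unadjusted p under 0.05 and 2.34% did not overlap, as none of the members did. Nfe2l2 differed by -0.0015 (SE 0.135).

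Without replicates 3 and 4, a choice made after seeing the data, 3 of the 8 targets had a positive log2 fold change and their median was -0.024. Nqo1 then had -0.40 (SE 0.184, edgeR adjusted p = 0.520), Osgin1 -0.042 (SE 0.139), Gclc -0.031 (SE 0.176), Gclm -0.016 (SE 0.129) and Hmox1 0.096 (SE 0.105). Again edgeR called 0 of the members (0% of genes) and 0 had an unadjusted p under 0.05 (9.76% of genes). The direction of Nqo1, Gclc, Gclm, Srxn1 and Osgin1 in this comparison therefore rested on those 2 kidneys. The proximal tubule score averaged 0.54 in the KO rCD5L kidneys (SD 1.47, n = 5) and -0.064 in the KO PBS kidneys (SD 0.481, n = 4), a difference of 0.61 (exact permutation test, p = 0.675) that became -0.18 without both kidneys. With the score as a term of the edgeR fit of all 9 kidneys, 7 of the 8 targets had a positive value, with a median of 0.19 in place of 0.52, and 0 members were called or had an unadjusted p under 0.05 (753 of 17467 genes).

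Between CD5L KO and WT kidneys that were both given rCD5L, 8 of the 8 targets were again on the positive side, with a median log2 fold change of 0.53 beside -0.011 over all genes. Osgin1 had 46.1 ± 38.0 CPM (SD, n = 5) against 17.1 ± 1.74 CPM (SD, n = 5), a log2 fold change of 1.44 (SE 0.441, edgeR adjusted p = 0.259). Nqo1 had 1.21 (SE 0.433, adjusted p = 0.259), Hmox1 0.52 (SE 0.224, adjusted p = 0.267) and Srxn1 0.50 (SE 0.193, adjusted p = 0.259). These 4 had an unadjusted edgeR p under 0.05 (17.8% of genes), 0 members were called by edgeR (0% of genes) or DESeq2 (0.205% of genes), and Osgin1 alone did not overlap (7.38% of genes). In a fit of all 19 kidneys, edgeR called Osgin1 (adjusted p = 0.0387) and Nqo1 (adjusted p = 0.0463), as it did 7% of the 18454 genes tested. The KO rCD5L and WT rCD5L kidneys did not overlap over the endothelial list (424 to 447 against 481 to 526 CPM) or the podocyte list (286 to 433 against 435 to 525 CPM), whose part was not tested.

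Without both kidneys, Osgin1 kept its direction and its separation, with 21.3, 22.2 and 22.4 CPM against 15.4 to 19.8 CPM and a log2 fold change of 0.35 (SE 0.0947, edgeR adjusted p = 0.0579). Nqo1 had 0.29 (SE 0.140), Srxn1 0.17 (SE 0.0805), Hmox1 0.083 (SE 0.104) and Gclc -0.028 (SE 0.0879). The number of members called was 0 (3.58% of genes were called), and 1, Osgin1, had an unadjusted p under 0.05 (21.5% of genes). The proximal tubule score differed by 1.01 with all kidneys (exact permutation test, p = 0.0635) and by 0.22 without both (p = 0.232). With the score as a term and all kidneys, 6 of the 8 targets had a positive value with a median of 0.27, and 1 member, Osgin1 at 0.48 (SE 0.217, edgeR adjusted p = 0.570), had an unadjusted p under 0.05 (1506 of 17360 genes).

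**Figure D2:**
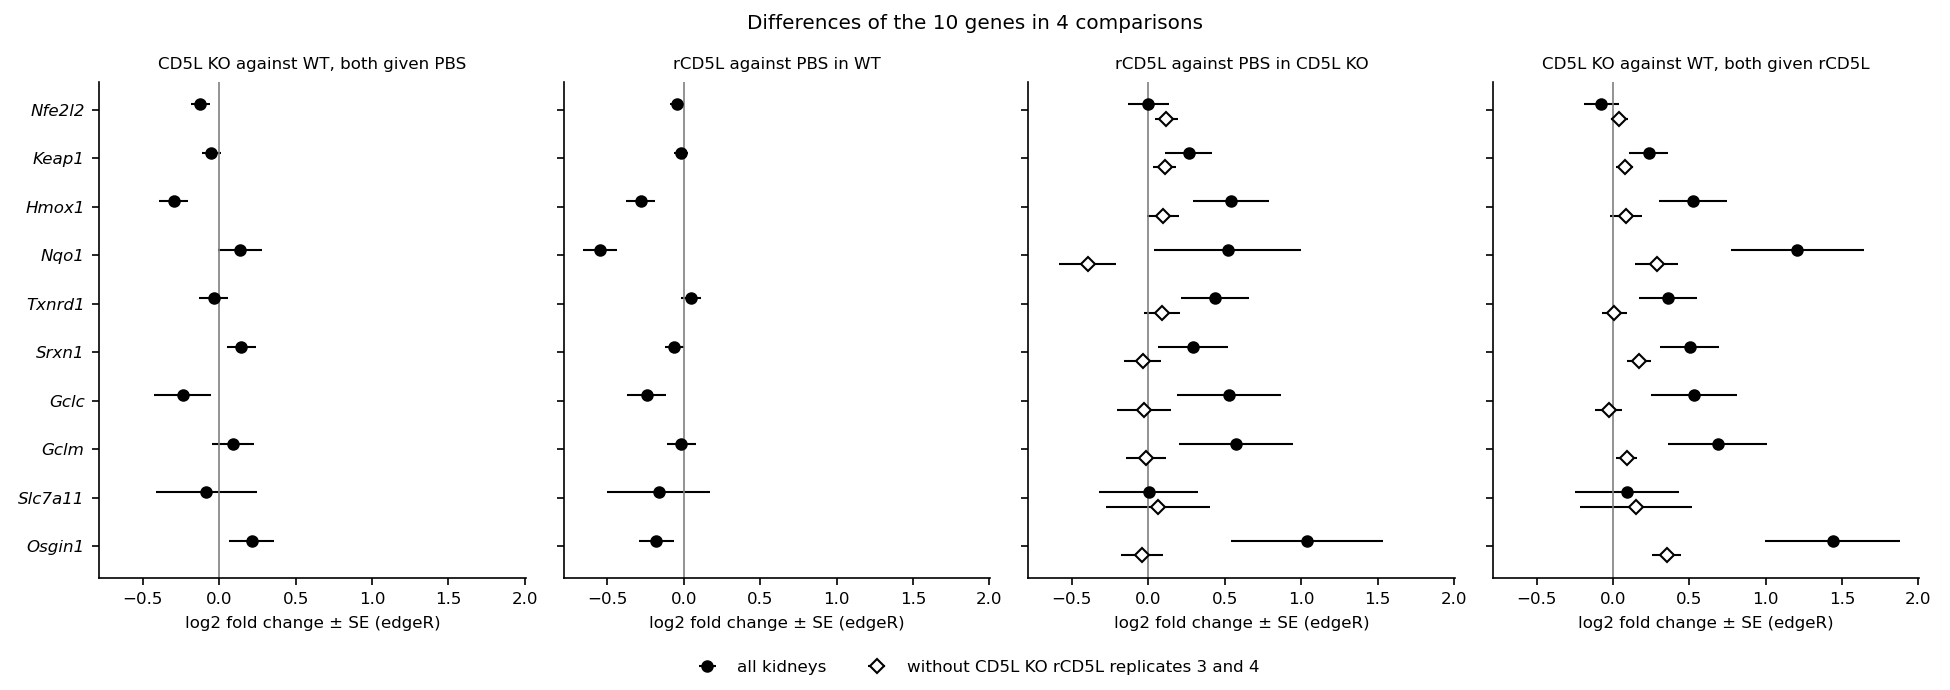
Log2 fold change with its standard error (edgeR) of the 10 genes in 4 comparisons, where open diamonds leave out KO rCD5L replicates 3 and 4. Open diamonds lie nearer 0 than the filled circles for the targets in the 2 panels on the right, apart from Slc7a11, such as Osgin1 at 1.04 against -0.042 in CD5L KO mice.

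The interaction, which asks whether the response to rCD5L differed between genotypes, was called for 0 of the 10 members by edgeR (0% of 18454 genes) and by DESeq2 (0% of genes). At an unadjusted p under 0.05 (6.25% of genes) there were 4, Hmox1 with 0.84 (SE 0.274, edgeR adjusted p = 0.731), Osgin1 with 1.24 (SE 0.523), Nqo1 with 1.09 (SE 0.512) and Gclc with 0.79 (SE 0.376). Without replicates 3 and 4, Hmox1 had 0.38 (SE 0.152, adjusted p = 0.965), Nqo1 0.15 (SE 0.223) and Osgin1 0.14 (SE 0.190), and 2 members, Hmox1 and Nfe2l2 (0.17, SE 0.0780), had an unadjusted p under 0.05 (4.96% of genes). Gclc was no longer among them. All 8 targets kept a positive value without both kidneys, with a median of 0.15 against 0.70 with all kidneys. With the score as a term the median over the targets was 0.22 in place of 0.70, and Hmox1 alone of the members had an unadjusted p under 0.05 (0.63, SE 0.251, edgeR adjusted p = 0.974), as had 763 of 18454 genes. The 4 pairwise comparisons share their groups of kidneys 2 at a time, so their values are not independent of each other.

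The pathway beyond the members was read from 37 genes, 10 regulators and partners of Nrf2 and 27 further targets. Between the KO PBS and WT PBS kidneys, 36 were tested, 5 rose, 3 fell and 28 did not pass the test (10.5% of all genes passed). Of 9 glutathione enzymes tested, Mgst1, a microsomal glutathione transferase, rose by 0.46 on the log2 scale (SE 0.0802, edgeR adjusted p = 0.00677), and Gsta4, which conjugates the lipid aldehyde 4-hydroxynonenal, by 0.58 (SE 0.138, adjusted p = 0.0215). Of 3 thioredoxin and peroxiredoxin genes, Prdx1 rose by 0.40 (SE 0.0703) and Txn1 by 0.25 (SE 0.0513). Of the regulators, Rbx1, the ligase subunit named above, rose by 0.19 (SE 0.0479), while Bach1, a repressor of antioxidant response elements, fell by 0.25 (SE 0.0649), Mafg, a small Maf partner, fell by 0.27 (SE 0.0763) and Gsk3b, a kinase that marks Nrf2 for a second route of breakdown, fell by 0.18 (SE 0.0508). None of 5 NADPH genes, 3 heme and iron genes and 6 detoxification and export genes passed, and the smallest p-values among them were those of Pgd (-0.17, adjusted p = 0.0555) and Me1 (0.17, adjusted p = 0.480), of Blvrb (0.20, adjusted p = 0.146) and Fth1 (0.27, adjusted p = 0.248), and of Ephx1 (-0.22, adjusted p = 0.0718) and Abcc1 (-0.24, adjusted p = 0.110).

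Mgst1, Prdx1 and Txn1 stayed under the threshold when any of the 9 kidneys was left out (highest adjusted p = 0.0217, 0.0200 and 0.0348). Gsta4 did so in 7 of 9 cases, Rbx1 in 5, Bach1 in 2, and Mafg and Gsk3b in 1, while the number of all genes called ranged from 1015 to 2062. Their log2 fold changes then ranged from 0.47 to 0.68 for Gsta4, 0.17 to 0.21 for Rbx1, -0.27 to -0.19 for Bach1, -0.30 to -0.19 for Mafg and -0.21 to -0.16 for Gsk3b. DESeq2 called all 8 (highest adjusted p = 0.0174, Gsk3b). When all 19 kidneys shared 1 fit, 12 of 18454 genes were called and none of the 8, with Mgst1 nearest (0.47, adjusted p = 0.0574) and the log2 fold changes of the others between -0.26 (Mafg) and 0.58 (Gsta4). When a trend with gene length was removed, Mgst1, Prdx1 and Rbx1 held (adjusted p = 0.0118, 0.0102 and 0.0190) and the other 5 did not. Of these 5, Gsta4 (0.46, adjusted p = 0.0653), Bach1 (-0.19, adjusted p = 0.0880) and Mafg (-0.22, adjusted p = 0.0927) kept most of their log2 fold change, while Txn1 (0.12, adjusted p = 0.154) and Gsk3b (-0.087, adjusted p = 0.333) lay nearer 0.

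When WT mice received rCD5L, 35 of the wider genes were tested and 0 passed by edgeR, although 12 had an unadjusted p under 0.05 (16% of all genes), each with a negative log2 fold change. All 8 glutathione enzymes tested had a negative value, and the smallest p-values were those of Gstm1 (-0.35, SE 0.0835, adjusted p = 0.109) and Gstp1 (-0.33, SE 0.0851, adjusted p = 0.119). The others named by smallest p were Rbx1 (-0.12) and Sqstm1 (-0.097) among the regulators, Pgd (-0.14) and Tkt (-0.10) among the NADPH genes, Prdx6 (-0.15) and Txn1 (-0.12), Ftl1 (-0.20) and Blvrb (-0.18), and Akr1b8 (-0.16) and Ephx1 (-0.10).

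When CD5L KO mice received rCD5L, 0 of 36 passed and 2 had an unadjusted p under 0.05 (2.87% of all genes), Mgst1 (-0.31, SE 0.116) and Gsta4 (-0.27, SE 0.112), each with an edgeR adjusted p of 0.897. By smallest p, the other lists gave Mafg (0.18) and Btrc (0.15), Me1 (0.82) and Pgd (0.35), Prdx6 (0.34) and Prdx1 (0.13), Ftl1 (0.35) and Fth1 (0.51), and Akr1b8 (-0.39) and Cbr3 (-0.13). Without replicates 3 and 4 the sign turned in Me1 (-0.12), Prdx6 (-0.0018), Ftl1 (-0.099) and Fth1 (-0.21). It was kept in Mafg (0.14), Btrc (0.053), Pgd (0.053) and Cbr3 (-0.086). The median over the wider genes was 0.10, and -0.037 without replicates 3 and 4. Without both, 0 of 36 passed and 5 had an unadjusted p under 0.05 (9.76% of all genes), Mgst1 (-0.31), Gsta4 (-0.28), Prdx1 (-0.24), Akr1b8 (-0.24) and Txn1 (-0.17), the last 3 named after their values were seen.

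Between genotypes given rCD5L, 0 of 35 passed, and 16 had an unadjusted p under 0.05 (17.8% of all genes), of which 15 were positive. Gsta2 (1.08, SE 0.158, edgeR adjusted p = 0.191) and Gstm1 (0.68, SE 0.221, adjusted p = 0.259) led the glutathione enzymes, followed in their lists by Bach1 (-0.31) and Rbx1 (0.28), Me1 (1.16) and Taldo1 (0.42), Prdx1 (0.67) and Txn1 (0.36), Fth1 (0.90) and Ftl1 (0.62), and Abcc1 (-0.21) and Abcc4 (-0.11). Without both kidneys, 16 had an unadjusted p under 0.05 (21.5% of all genes) and 4 passed (3.58% of all genes), Gsta2 (0.94, adjusted p = 0.0101), Gstm1 (0.26, adjusted p = 0.0467), Mgst1 (0.28, adjusted p = 0.0446) and Prdx1 (0.29, adjusted p = 0.0410), genes named here after their values were seen. The other genes listed above for this comparison kept their sign without both kidneys but lay nearer 0. Me1 had 0.21, Taldo1 0.13, Txn1 0.20, Fth1 0.19 and Ftl1 0.17. Rbx1 had 0.20, Bach1 -0.18, Abcc1 -0.17 and Abcc4 -0.027. Reads of the glutathione transferases may be split among near-identical copies, and Gsta1 and Gsta2 are uncertain for that reason. In the interaction, 0 of 36 passed and 8 had an unadjusted p under 0.05 (6.25% of all genes). Without both kidneys 0 passed and 1 had, Pgd at 0.19 (4.96% of all genes). Of the other 7, Gsta2 went from 0.63 (SE 0.253) to 0.48 (SE 0.246), Gstp1 from 0.81 (SE 0.293) to 0.31 (SE 0.158) and the other 5 to between 0.10 and 0.18, all named after their values were seen.

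Whether the targets follow their factor was read across the 19 kidneys on log2 CPM. Pearson's r of the targets with Nfe2l2 was negative in 7 of 8, with a median of -0.49 beside 0.062 over all genes tested. The strongest were Srxn1 (r = -0.722, permutation p = 0.0036), Txnrd1 (r = -0.656, permutation p = 0.00737) and Osgin1 (r = -0.649, permutation p = 0.0124), and for Keap1 r was -0.669 (permutation p = 0.0199). Ranks gave no such relation, with a Spearman's rho of -0.228 for Srxn1 (permutation p = 0.346), -0.279 for Txnrd1 (p = 0.247), -0.104 for Osgin1 (p = 0.671) and -0.0947 for Keap1 (p = 0.697). The 2 kidneys farthest from the median of Nfe2l2 were KO rCD5L replicates 3 and 4, and without them r was -0.117 for Srxn1, -0.0798 for Txnrd1, -0.0874 for Osgin1 and 0.0338 for Keap1 (permutation p of 0.654, 0.761, 0.739 and 0.897). The negative relation thus rested on those 2 kidneys.

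For the remaining targets, r with Nfe2l2 went from -0.504 to 0.470 in Hmox1 when both kidneys were left out (permutation p = 0.0353 and 0.0586), from -0.479 to -0.0831 in Nqo1 (p = 0.052 and 0.755), from -0.465 to -0.0891 in Gclm (p = 0.0613 and 0.733) and from -0.409 to 0.182 in Gclc (p = 0.0829 and 0.481). Spearman's rho without both kidneys was 0.544 in Hmox1 (permutation p = 0.025) and 0.525 in Gclc (p = 0.0327), the only targets with a positive rho at an unadjusted p under 0.05. Slc7a11 had r = 0.0573 and 0.129. With limma over all genes, Txnrd1, Srxn1 and Osgin1, 3 of 8 targets, were called with a negative slope on Nfe2l2, as were 23.8% of all genes in either direction, and without both kidneys 0 targets and 0% of genes were called.

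**Figure D3:**
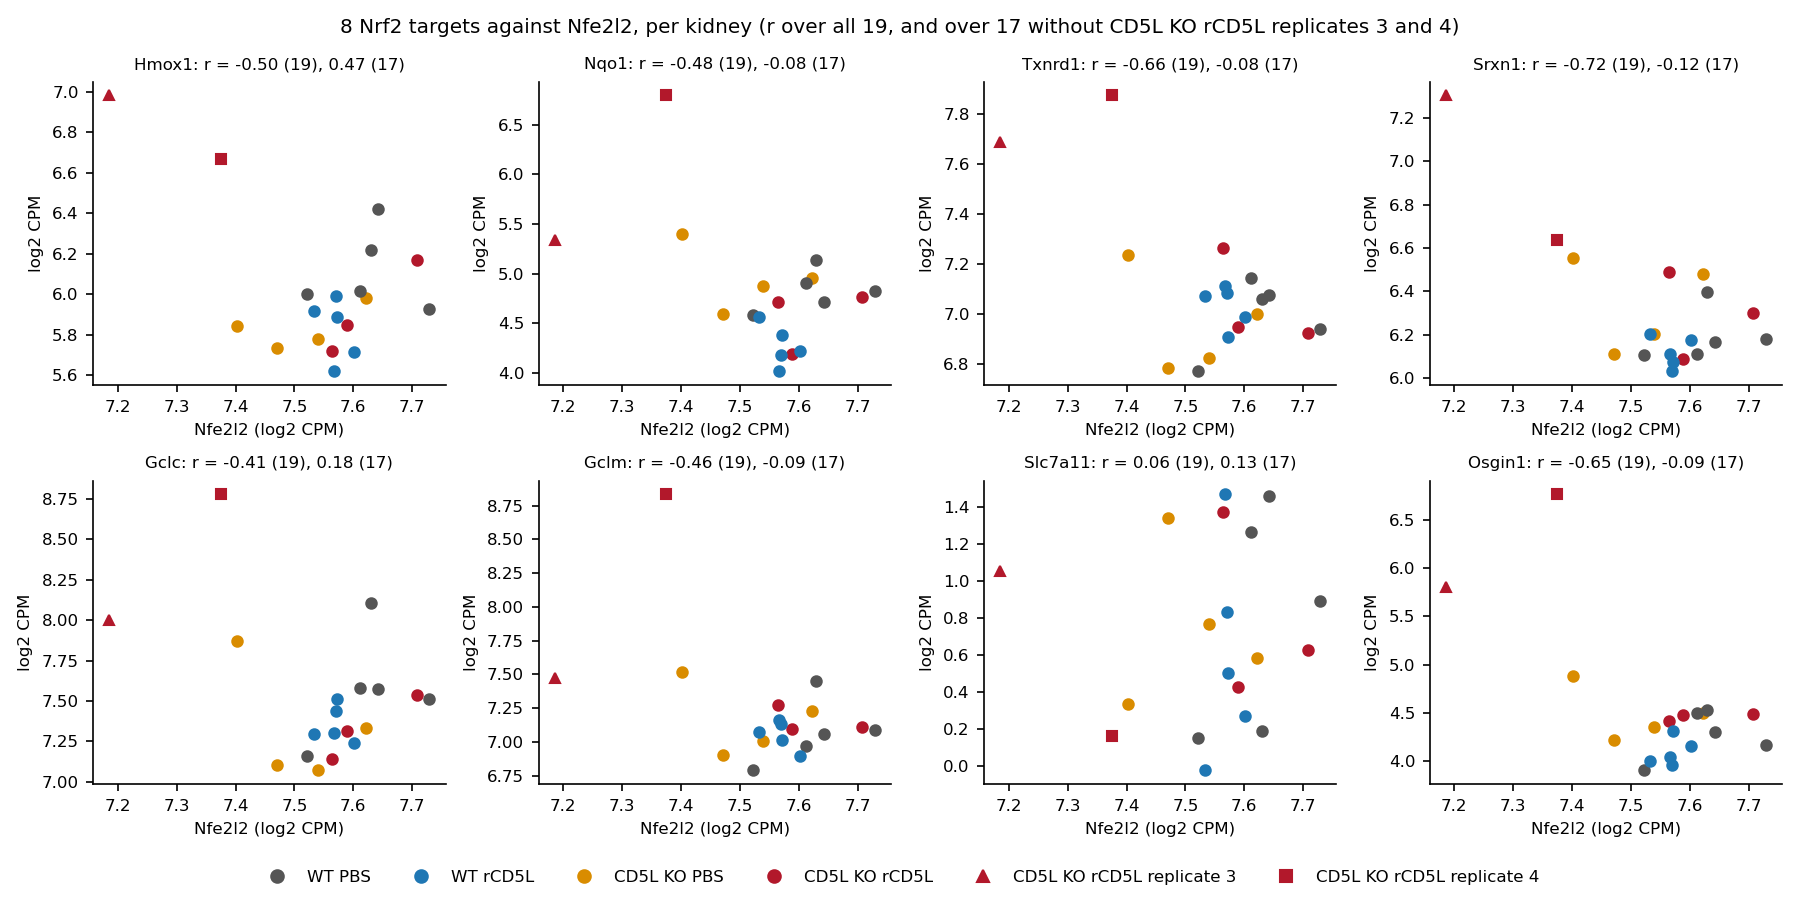
Log2 CPM of each of the 8 targets against log2 CPM of Nfe2l2, 1 point per kidney coloured by group, with Pearson's r over 19 kidneys and over the 17 without KO rCD5L replicates 3 and 4 (triangle and square). Both marked kidneys lie at the left end of the Nfe2l2 axis, and r moves from -0.72 to -0.12 for Srxn1 without them.

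Of the 8 targets, 4 (Srxn1, Txnrd1, Hmox1 and Gclm) are on the study's own marker list of acutely injured proximal tubule. The study's proximal tubule list and the list behind the score hold 0 members. With the proximal tubule score, r was positive in 7 of 8 targets, with a median of 0.82 beside -0.12 over all genes tested. It was 0.948 for Gclm (permutation p = 2e-05), 0.934 for Nqo1 (permutation p = 1e-05, the smallest that 100000 permutations can give), 0.887 for Osgin1 (p = 6e-05), 0.876 for Gclc (p = 2e-05) and 0.756 for Txnrd1 (p = 0.00141). Spearman's rho was 0.856 for Nqo1 (permutation p = 2e-05), 0.758 for Osgin1 (p = 0.00021), 0.712 for Gclc (p = 0.00086), 0.618 for Gclm (p = 0.00563) and 0.430 for Txnrd1 (p = 0.068). Hmox1 had r = 0.586 and rho = 0.560 (permutation p = 0.0321 and 0.0138), Srxn1 r = 0.492 and rho = 0.705 (permutation p = 0.0521 and 0.00088), and Slc7a11 r = -0.326 and rho = -0.221 (permutation p = 0.175 and 0.361). Nfe2l2 itself had r = -0.374 and rho = -0.0193 (permutation p = 0.1 and 0.94), and Keap1 r = 0.263 and rho = 0.581 (permutation p = 0.12 and 0.0105).

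Unlike the relation to Nfe2l2, this one did not rest on the 2 kidneys alone in 5 targets. Without replicates 3 and 4, r was 0.816 for Nqo1 (permutation p = 8e-05), 0.715 for Osgin1 (p = 0.00126), 0.711 for Gclc (p = 0.00132), 0.700 for Gclm (p = 0.00185) and 0.641 for Srxn1 (p = 0.00569). It was 0.346 for Txnrd1 (permutation p = 0.174) and 0.355 for Hmox1 (p = 0.164). The 2 kidneys farthest from the median of the score were KO rCD5L replicate 4 and WT PBS replicate 3, and without those r was 0.827 for Nqo1, 0.690 for Osgin1, 0.677 for Gclm, 0.664 for Gclc, 0.616 for Srxn1, 0.504 for Txnrd1 and 0.429 for Hmox1. Within groups, with the group means removed, r was 0.959 for Gclm, 0.948 for Nqo1, 0.891 for Osgin1, 0.875 for Gclc, 0.748 for Txnrd1, 0.491 for Hmox1 and 0.339 for Srxn1 over the 19 kidneys. Over the 17 without replicates 3 and 4 it was 0.780 for Gclm, 0.788 for Nqo1, 0.758 for Osgin1, 0.751 for Gclc, 0.516 for Txnrd1, 0.219 for Hmox1 and 0.657 for Srxn1. Among these targets the largest shifts were those of Srxn1 and Hmox1. Keap1, which is not a target, also ran with the score over the 17 kidneys, at r = 0.6349 (permutation p = 0.00643). Its r within groups was 0.06028 over the 19 kidneys and 0.8185 over the 17, where it lay above those of the targets.

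With limma over all genes, 7 of the 8 targets were called with a positive slope on the score, but so were many other genes, as 45.8% of all genes were called in either direction. Without replicates 3 and 4, 4 of the 8 were called, Nqo1 (adjusted p = 0.000674), Gclc (adjusted p = 0.0122), Osgin1 (adjusted p = 0.0183) and Gclm (adjusted p = 0.0231), where 3.79% of all genes were. The other 3 lost their call, Srxn1 with a slope of 0.28 (SE 0.0826, adjusted p = 0.0689) in place of 0.18, Hmox1 with 0.19 (SE 0.117) in place of 0.24 and Txnrd1 with 0.13 (SE 0.0873) in place of 0.25. In these 17 kidneys r of Nqo1 with the score lay above that of 99.02% of genes, and those of Gclc, Gclm and Osgin1 above 97.6% to 97.9%. On a score made likewise from the 8 macrophage markers, 7 of 8 targets had a negative slope and 5 were called (44.7% of genes), and without both kidneys 6 had a negative slope and 2, Gclm and Srxn1, were called (2.21% of genes). The slope of Nqo1 was -1.35 (SE 0.171) and that of Gclm -1.05 (SE 0.0916) in all kidneys (limma adjusted p = 8.6e-07 and 4.64e-09), and -1.46 (SE 0.416) and -0.87 (SE 0.204) without both (adjusted p = 0.0700 and 0.0286). Hmox1 had -0.34 (SE 0.173) in all kidneys and 0.27 (SE 0.294) without both, where it had the same sign as its slope on the proximal tubule score, 0.19.

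With the proximal tubule and macrophage scores in 1 limma fit, a choice made after seeing the data, the proximal tubule score kept a positive slope in 7 of 8 targets. It was called in 2 (1.06% of genes) and had an unadjusted p under 0.05 in 5 (12.2% of genes), and the 2 were Hmox1 at 0.83 (SE 0.176, adjusted p = 0.0155) and Nqo1 at 0.79 (SE 0.180, adjusted p = 0.0283). The other 5 calls were lost, with larger standard errors in each. Against the fit of the proximal tubule score alone, the slope of Gclc went from 0.44 (SE 0.0539) to 0.60 (SE 0.161, adjusted p = 0.0817), that of Osgin1 from 0.72 (SE 0.0810) to 0.78 (SE 0.249, adjusted p = 0.169) and that of Srxn1 from 0.18 (SE 0.0670) to 0.37 (SE 0.201, adjusted p = 0.477). Txnrd1 went from 0.25 (SE 0.0497) to 0.23 (SE 0.152, adjusted p = 0.556) and Gclm from 0.49 (SE 0.0407) to 0.28 (SE 0.116, adjusted p = 0.324). Over the 19 kidneys these slopes were thus measured less precisely, and that of Gclm came out smaller. Without replicates 3 and 4, limma called 0 targets for the proximal tubule score (0.608% of genes) and 4 had an unadjusted p under 0.05 (7.96% of genes), Hmox1 at 0.53 (SE 0.130, adjusted p = 0.0738), Nqo1 at 0.73 (SE 0.189, adjusted p = 0.107), Gclc at 0.51 (SE 0.169, adjusted p = 0.310) and Osgin1 at 0.33 (SE 0.160, adjusted p = 0.627). Among these 17 kidneys the slope of Srxn1 went from 0.28 with the proximal tubule score alone to 0.091 (SE 0.103) with both scores, that of Txnrd1 from 0.13 to 0.0071 (SE 0.119) and that of Gclm from 0.35 to 0.19 (SE 0.114). The macrophage score was called in 0 targets of that fit, with all kidneys (0% of genes) and without both (0.00542% of genes). At an unadjusted p under 0.05 there were 1 target (8.23% of genes) and 2 targets (6.77% of genes).

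**Figure D4:**
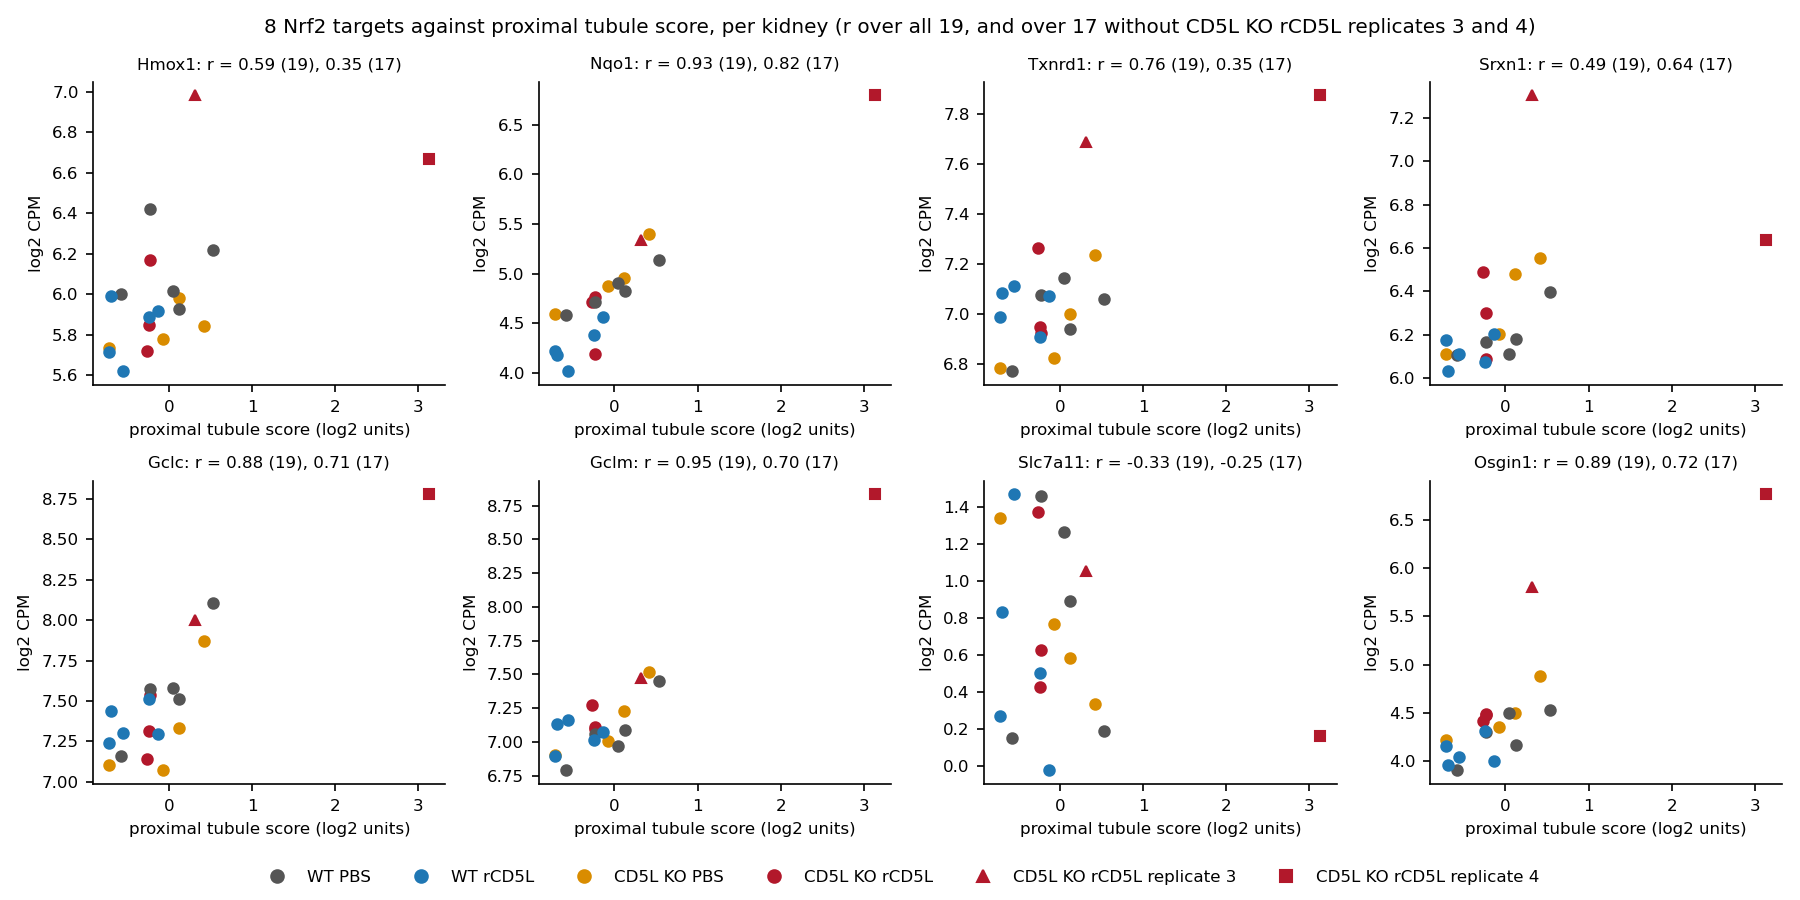
Log2 CPM of each of the 8 targets against the proximal tubule score (log2 units), 1 point per kidney coloured by group, with Pearson's r over 19 and over 17 kidneys as in the plot against Nfe2l2. Replicate 4 of the KO rCD5L mice (square) lies far to the right at 3.13, and among the other kidneys Nqo1, Gclc, Gclm, Srxn1 and Osgin1 are higher where the score is higher.

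When Nfe2l2, the score and the group stood in 1 limma fit, the score had a positive slope in 7 of 8 targets, and 5 were called (44.9% of genes), Nqo1 at 0.60 (SE 0.050), Osgin1 at 0.54 (SE 0.0558), Gclm at 0.47 (SE 0.0388), Gclc at 0.41 (SE 0.0573) and Txnrd1 at 0.18 (SE 0.0410), as log2 units of the gene per log2 unit of the score. Nfe2l2 had a negative slope in all 8, and 4 were called (28.7% of genes), Osgin1 at -1.76 (SE 0.382), Srxn1 at -1.45 (SE 0.394), Hmox1 at -1.35 (SE 0.457) and Txnrd1 at -1.01 (SE 0.281). Without both kidneys the score still had 4 called targets (3.3% of genes), Nqo1 at 0.59 (SE 0.120), Gclc at 0.59 (SE 0.127), Osgin1 at 0.46 (SE 0.112) and Gclm at 0.45 (SE 0.0908), and Nfe2l2 had 0 (0% of genes). Txnrd1 lost its call for the score with a slope of 0.24 (SE 0.0929, adjusted p = 0.202). In these fits, which did not hold the macrophage score, Gclc, Gclm, Nqo1 and Osgin1 were called for the proximal tubule score with and without the 2 kidneys, although with the study's own proximal tubule list Osgin1 was not called over the 17 kidneys (limma adjusted p = 0.0548). No target was called with a positive slope on Nfe2l2 in these fits.

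**Figure D5:**
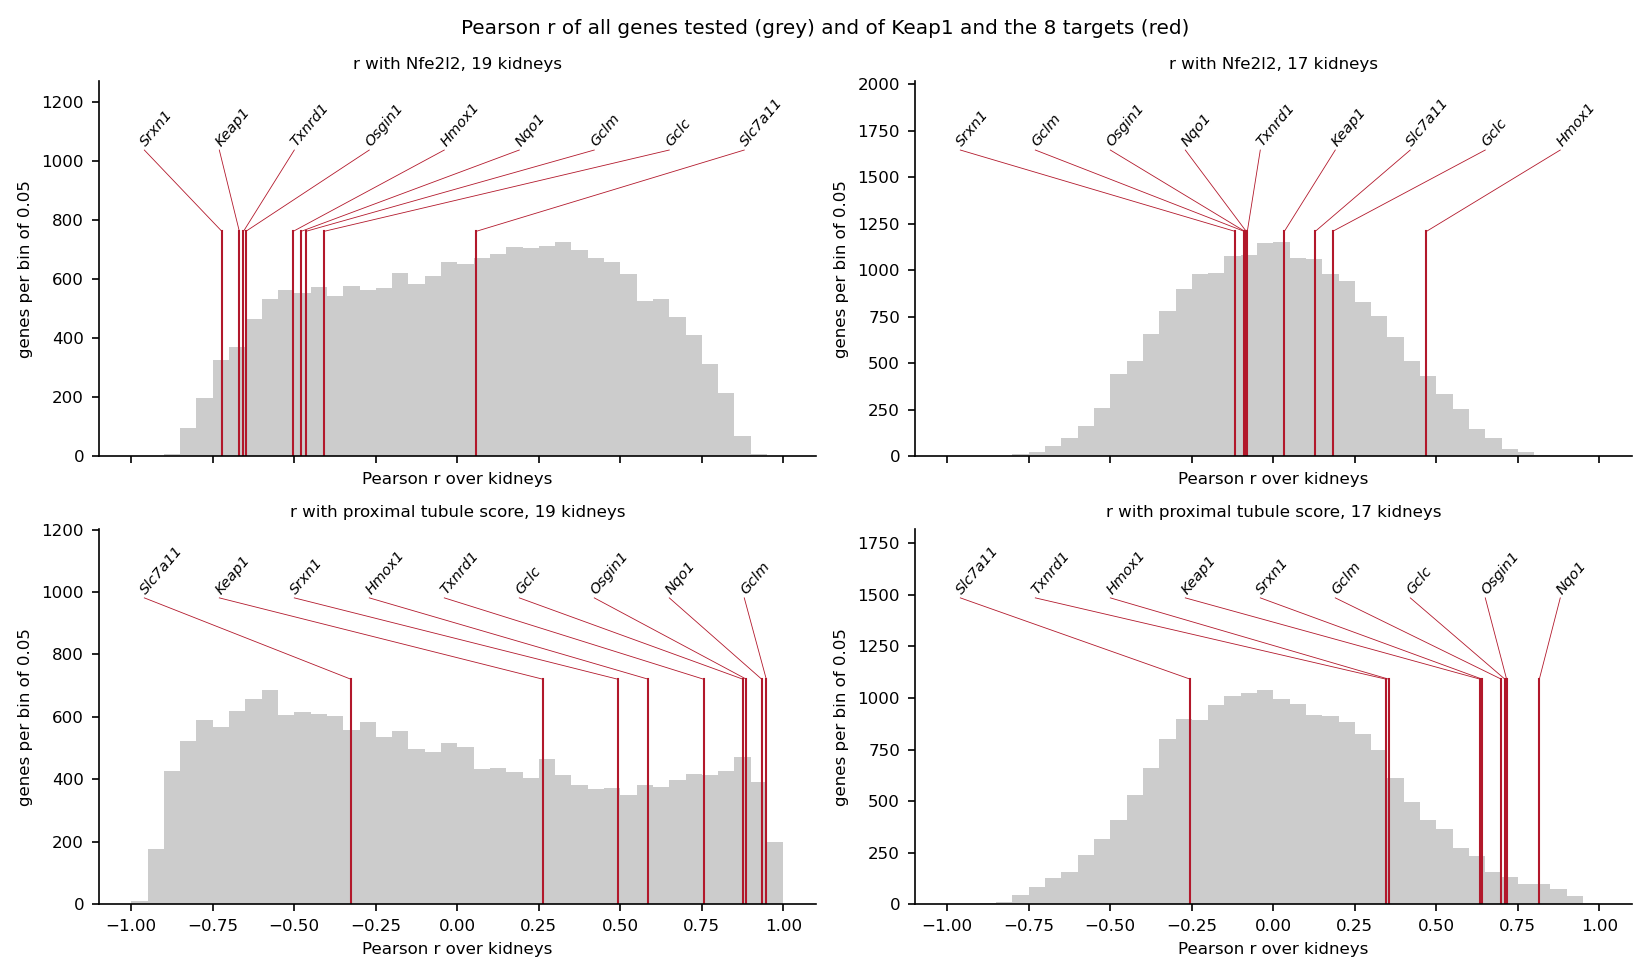
Distribution of Pearson's r with Nfe2l2 (top) and with the proximal tubule score (bottom) over all genes tested, in grey, with Keap1 and the 8 targets as red lines, over 19 kidneys (left) and the 17 without KO rCD5L replicates 3 and 4 (right). With Nfe2l2 the targets move from a median r of -0.49 to -0.08, inside the bulk of the genes, and with the score all but Slc7a11 stay right of 0, at a median of 0.82 and 0.67 over the targets.

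The genes whose levels ran closest to those of a member over the 19 kidneys differed between members. Nearest to Nfe2l2 were Ythdc1 (r = 0.920), Ap4e1 (0.917), Tra2a (0.914), Luc7l (0.909) and Khdc4 (0.904), none of them a member or a gene of the wider lists. Nearest to Hmox1 were Psmc4 (r = 0.935), Eno1 (0.929), Cdipt (0.917), Elovl1 (0.915) and Scamp3 (0.911). Nearest to Nqo1 were Ndufb10 (r = 0.972), Ndufb6 (0.964), Akr1a1 (0.964), Fbp1 (0.964) and Hgd (0.962). Fbp1, an enzyme of gluconeogenesis, is on the proximal tubule list. Over the 17 kidneys, r of these 15 genes with their member was 0.753 to 0.778, 0.701 to 0.788 and 0.898 to 0.941 in turn. They are given as a description without a test, as they were chosen for their r.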

How the data were processed

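Bulk RNA-seq of 19 obstructed kidneys was used, 4 or 5 per group as the labels gave them. The authors deposited raw counts per gene and FPKM values for the same genes, made from paired 150 base reads of random-primed libraries (RNA integrity number of at least 7) with Trimmomatic, HISAT2 (GRCm38/mm10) and featureCounts, and they tested genes with DESeq2. Versions, the strand setting and the handling of reads with several matches are not given in the sources used here. Genes overlapping a member had at most 370 counts in all. FPKM served for levels across genes and as an alternative.

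The quasi-likelihood test of edgeR 4.0.16 (R 4.3.3) was run on the counts (TMM, filterByExpr with a minimum count of 10, glmQLFit, glmQLFTest), with only the compared groups in a fit and all 4 in the interaction. P-values were adjusted over all genes tested by the Benjamini-Hochberg method, with a threshold of 0.05. Shares of genes called by DESeq2 are over genes without the count filter, so they are lower than over the filtered set that edgeR used. Relations used log2 CPM (TMM, prior count 2), limma 3.58.1 (trend) and two-sided permutation tests with 100000 resamples over 19 relations, 9 with Nfe2l2 and 10 with the score. These permutations ignored the groups, their p-values are unadjusted, and r within groups was given without a p-value. The members, the marker and pathway lists and the tests were chosen with earlier results of these data known. The text names all 10 members, the called genes of the wider lists (or the 2 smallest p-values of a list) and the 5 genes nearest to Nfe2l2, Hmox1 and Nqo1 among genes averaging 1 or more in log2 CPM. The alternatives tried were a replicate block, a shared fit of all 19 kidneys, DESeq2 1.42.0, unfiltered genes, RLE factors, the proximal tubule score as covariate, a gene length offset (lowess span 0.3), FPKM with limma at a pseudocount of 1 or 0.1, the study's proximal tubule list and leaving out each replicate; leaving out KO rCD5L replicates 3 and 4 together, CPM without scaling factors, and the macrophage score as a further term were chosen after seeing the data. Fits were tested on simulated data.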

Additional observations from a re-analysis of the deposited data

Results flagged for a closer look

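In 40 groups of 4 or 5 kidneys (10 genes in 4 groups), the gap between an extreme kidney and its nearest neighbour took an unusually large share of the range by Dixon's critical values in 4. Chance gives about 5% of groups. Keap1 had 83.6 CPM in KO rCD5L replicate 3, next to 54.1 CPM (0.966 of the range). Nqo1 had 111 CPM (next 40.2, 0.762 of the range) and Gclm 456 CPM (next 178, 0.871 of the range), both in replicate 4 of that group. Srxn1 had 84.3 CPM in WT PBS replicate 3, next to 72.5 CPM (0.759 of the range), and that kidney also had the highest proximal tubule score among kidneys other than KO rCD5L replicate 4, at 0.53. The causes were not tested.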

How the results depend on the processing

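The number of members called between the KO PBS and WT PBS kidneys was 0, and it was 1 (Hmox1) with DESeq2 (2571 of 31568 genes), with the proximal tubule score as covariate (2573 of 17579) and with the gene length offset (1371 of 17579), and 0 to 1 when single kidneys were left out (1 without WT PBS replicate 5, with 1371 of 17458 genes). For rCD5L in WT mice it was 0, 1 (Nqo1) with DESeq2 (508 of 31800 genes) and without the filter (137 of 31830), and 0 to 1 when single kidneys were left out (1 without WT PBS replicate 1, with 39 of 17607 genes). Between genotypes given rCD5L it was 0, and 2 (Nqo1 and Osgin1) with all 19 kidneys in 1 fit (1291 of 18454 genes). Apart from the replicate block, no other alternative changed a count of called members.

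The replicate numbers did not pair the kidneys, as same-numbered kidneys correlated by -0.186 to 0.174 and had their best partner in their own number in 4 of 8, 4 of 8, 0 of 10 and 0 of 10 cases. With the replicate number as a block, 2 members were called between the KO PBS and WT PBS kidneys (Hmox1 and Gclc), 2132 genes in place of 1850, and 0 members in each other comparison.

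The median r of the targets with Nfe2l2, -0.49, was -0.082 without the 2 farthest kidneys, which are KO rCD5L replicates 3 and 4, -0.13 without scaling factors and without both, and -0.53 to -0.40 when single kidneys were left out. The median r with the proximal tubule score, 0.82, was 0.62 without scaling factors, 0.58 without these and without both kidneys, and 0.62 to 0.86 when single kidneys were left out. The number of targets called for the proximal tubule score by limma was 7, 4 without both kidneys, 2 with the macrophage score in the fit and 0 with it and without both. With that score in the fit, the slopes of Srxn1 and Txnrd1 were 0.37 and 0.23 over 19 kidneys (0.18 and 0.25 without it) and 0.091 and 0.0071 over 17 (0.28 and 0.13 without it). In the joint fit, 4 slopes on Nfe2l2 were called, and 0 without both kidneys. The difference of the score between the KO PBS and WT PBS kidneys, -0.043, was 0.0035 with the study's list and -0.20 to 0.18 with single kidneys left out, and the difference between the KO rCD5L and KO PBS kidneys, 0.61, was -0.18 without both kidneys and -0.042 to 0.81 with single kidneys left out.

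Signs of single genes (log2 fold change) turned as follows. Between the KO PBS and WT PBS kidneys, the gene length offset gave 0.032 for Txnrd1 and 0.041 for Slc7a11. For rCD5L in CD5L KO mice, Nfe2l2 had 0.010 with DESeq2, 0.0091 with RLE factors, 0.0067 with all 19 kidneys, 0.025 with the score as covariate and 0.12 without both kidneys; Slc7a11 had -0.0033 without the filter and -4.3e-05 and -0.0038 with FPKM; Nqo1 had -0.16 with the score and -0.40 without both kidneys, where Srxn1 had -0.038, Gclc -0.031, Gclm -0.016 and Osgin1 -0.042. With the score as covariate, rCD5L in WT mice gave 0.037 for Keap1, 0.022 for Srxn1, 0.041 for Gclc, 0.17 for Gclm and 0.0042 for Osgin1, the genotypes given rCD5L -0.020 for Gclc and -0.0094 for Gclm, and the interaction -0.11 for Gclm. Without both kidneys, the genotypes given rCD5L gave 0.042 for Nfe2l2 and -0.028 for Gclc. Leaving out single kidneys gave these ranges where a sign turned. Between the KO PBS and WT PBS kidneys they were -0.029 to 0.24 for Nqo1, -0.13 to 0.019 for Txnrd1, -0.039 to 0.19 for Gclm and -0.34 to 0.12 for Slc7a11. For rCD5L in CD5L KO mice they were -0.058 to 0.069 for Nfe2l2, -0.17 to 0.72 for Nqo1 and -0.20 to 0.25 for Slc7a11. For rCD5L in WT mice they were -0.039 to 0.0040 for Keap1, -0.0093 to 0.084 for Txnrd1, -0.085 to 0.092 for Gclm and -0.47 to 0.034 for Slc7a11. For Slc7a11 they were -0.10 to 0.38 between the genotypes given rCD5L and -0.0042 to 0.49 in the interaction. The causes were not tested. Depth limits Slc7a11, with 14 to 67 counts per kidney.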
